A study of Mus musculus with 6 samples.

Results

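The genes described here are the collagens, laminins and integrins of the amygdala: the genes whose platform annotation gave 1 symbol that was either a collagen chain symbol (Col, digits, a, digits) or began with Lama, Lamb, Lamc, Itga or Itgb. The rule found 80 genes among 18193 with a single symbol, and 1 further gene with such a symbol was not analysed here. RNA was measured in dissected amygdala of male 129S1/SvImJ (S1) mice aged 8 to 10 weeks, taken 2 h after fear extinction training, with 1 Affymetrix Mouse430_2 array for each mouse. The groups were 3 mice on a zinc diet, numbered 3, 7 and 10 in the labels, and 3 mice on a control diet, numbered 1, 9 and 11. All 6 mice shared the strain, the sex, the age range and the extinction training, so the diet was the 1 labelled difference. The labels write the diet as Zn or ZnR and do not give its zinc content or how long it was fed. The question the comparison addresses is whether the diet went with a different amount of any of these transcripts.

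Collagens are triple helices of 3 chains. The fibrillar types (I, III, V, XI and relatives) build the rope-like fibres of connective tissue and in the brain are found mainly in the meninges and around larger vessels. Type IV collagen and the laminins, which are trimers of an alpha, a beta and a gamma chain, form the sheet-like basement membrane that wraps brain capillaries and lies under the astrocyte endfeet. Integrins are cell surface receptors made of an alpha and a beta subunit that bind these proteins and connect them to the cytoskeleton.

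Of the 80 genes, 11 encode fibrillar collagen chains and 18 basement membrane proteins (6 type IV collagens, 10 laminins, Col15a1 and Col18a1). Another 9 encode collagens with interrupted triple helices, 9 beaded filament, anchoring fibril and other collagens, and 4 transmembrane collagens. The integrins were 16 alpha and 9 beta subunits, and 4 more genes carry an integrin prefix but encode binding partners or relatives rather than subunits. Levels are log2 values of a probe set, a group of short probes near the 3′ end of a transcript, and the probe set with the highest mean stands for its gene. A gene was kept for testing when that mean reached 4 over the 6 arrays, which 36 of the 80 genes did and 44 did not. The filter ran between Col22a1, just inside at a mean of 4.11, and Col20a1, just outside at 3.92. Control replicate 9 stood apart in markers of choroid plexus and of the meninges, described below. Values without it are given beside some, but not all, of the results it touches. The array background is unknown here, so a level under the filter cannot be told from background.

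Promoter windows were available from RefSeq (assembly GRCm38.p6) for 58 of the 80 genes. The first set is shown because Col4a1 and Col4a2, the chains of the main type IV collagen, start head to head on chromosome 8 and are both described below. Col4a1 is read from the minus strand with a start at 11312826 and Col4a2 from the plus strand with a start at 11312805, so that their first bases overlap. The plus strand of chr8:11312801-11312830 is printed, with the 22 bases shared by both transcripts in capitals.

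Col4a1 and Col4a2 starts: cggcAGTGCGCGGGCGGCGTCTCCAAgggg

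The second set holds the 250 bases upstream of Col1a2 (chr6:4505368-4505617, plus strand) and Col11a1 (chr3:114030290-114030539, plus strand), the 2 fibrillar collagens with an unadjusted p under 0.05 in the comparison. Capitals mark the motifs searched on both strands: the GC box core GGGCGG and the CCAAT box, which reads ATTGG where it lies on the other strand. No TATAAA was found in either window.

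Col1a2 upstream: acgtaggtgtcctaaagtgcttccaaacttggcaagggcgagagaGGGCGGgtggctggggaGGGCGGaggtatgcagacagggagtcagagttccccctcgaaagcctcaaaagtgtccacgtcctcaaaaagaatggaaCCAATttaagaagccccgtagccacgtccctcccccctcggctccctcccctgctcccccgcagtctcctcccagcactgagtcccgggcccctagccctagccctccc
Col11a1 upstream: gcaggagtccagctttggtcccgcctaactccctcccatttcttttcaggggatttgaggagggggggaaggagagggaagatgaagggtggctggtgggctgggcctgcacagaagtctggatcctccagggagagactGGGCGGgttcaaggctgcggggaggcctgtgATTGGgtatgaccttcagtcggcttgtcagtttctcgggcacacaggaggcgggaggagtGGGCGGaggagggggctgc

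Across all 32851 RefSeq promoter windows of this length, 32.7% held GGGCGG, 33.8% CCAAT and 12.4% TATAAA. Of the 64 windows of the genes studied here, 46.9% held GGGCGG, 28.1% CCAAT and 7.81% TATAAA. Among 8 fibrillar collagen windows GGGCGG was found in 6, CCAAT in 3 and TATAAA in 2, and among 14 basement membrane windows in 6, 5 and 0. These matches describe the letters of the windows, and the windows counted include several starts of some genes.

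No collagen, laminin or integrin gene passed the test between the diets. With limma and Benjamini-Hochberg adjustment over the 22877 probe sets kept, 0 of the 36 genes had an adjusted p under 0.05, and neither did any other probe set (percent called 0%). The smallest adjusted p among the 36 was 0.59. At an unadjusted p under 0.05 stood 7 of the 36 genes, or 19.4%, beside 6.38% of all probe sets kept. At higher levels on the zinc diet were 3 of these, Itgb1bp1, Col1a2 and Col11a1 (3.63% of probe sets kept), and at lower levels 4, Itga4, Lamb3, Col4a2 and Lamb2 (2.75%). The number depended on single mice, with 2 genes (5.56%, beside 5.78% of all probe sets) without control replicate 11, 3 (8.33%, beside 3.72%) without zinc replicate 7, 4 without control replicate 9 (11.1%, beside 6.67%) and 4 without zinc replicate 3 (11.1%, beside 6.24%). It was 6 (16.7%) without control replicate 1 or zinc replicate 10, beside 9.84% and 4.87%.

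The diets did not overlap, with every zinc mouse on the same side of every control mouse, for 7 of the 36 genes (19.4%), beside 12% of all probe sets kept. Above were Col1a2, Col6a2 and Itgb1bp1, where 6.66% of probe sets kept lay, and below were Col4a2, Lamb3, Col25a1 and Itgb8, where 5.33% lay. Over all 80 genes the count was 10 (12.5%), beside 10.8% of all 45037 probe sets, which is near the background. The added genes, Col18a1, Col10a1 and Itga2b, were all below. Leaving out a mouse raises such counts for any gene: it gave 14 of 36 (38.9%) without control replicate 1, where 29% of probe sets kept did not overlap, 12 without control replicate 9 (33.3%, beside 22.8%), 12 without zinc replicate 7 (33.3%, beside 17.7%) and 11 without zinc replicate 10 (30.6%, beside 19.6%). Without control replicate 11 it gave 10 (27.8%, beside 20.7%), and without zinc replicate 3 it gave 8 (22.2%, beside 23.4%), which is near the background. The 80 genes had a median log2 change of -0.019, with 32 higher and 48 lower, and the 36 kept a median of -0.027, with 15 higher and 21 lower. Over all probe sets kept the median change was 0.0091.

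**Figure D1:**
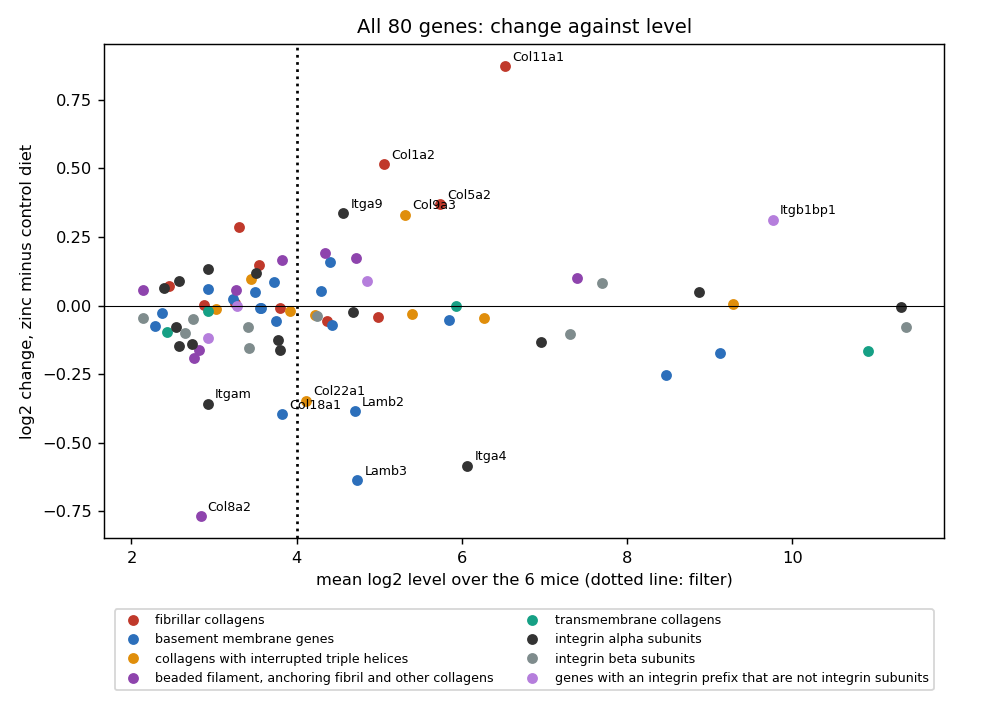
Log2 change (zinc diet minus control diet) of each of the 80 genes against its mean log2 level over the 6 mice, 1 point a gene, coloured by group, with names where the change is over 0.3 in size and a dotted line at the filter of 4. Col11a1 at 0.87 is the highest point and Col8a2, below the filter, the lowest at -0.77.

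Among the fibrillar collagens, 3 of the 5 genes kept were at higher levels on the zinc diet, and their median log2 change was 0.37. Over all 11 the median was 0.070, with 8 higher and 3 lower. Col1a2 encodes the second chain of type I collagen. Its log2 levels were 4.65, 5.21 and 4.54 in control replicates 1, 9 and 11, and 5.35, 5.34 and 5.27 in zinc replicates 3, 7 and 10. All zinc values lay above all control values, and control replicate 9 came closest to them. The means of 4.80 ± 0.36 (SD, n = 3) and 5.32 ± 0.046 (SD, n = 3) differed by 0.52 ± 0.17 (SE, 95% interval 0.10 to 0.93), a 1.43-fold difference with a limma adjusted p of 0.72 and an unadjusted p of 0.021. The other 2 probe sets of Col1a2 were under the filter, changed by 0.25 and 0.15, and overlapped between diets. Without control replicate 9 the change of Col1a2 was 0.72 (limma adjusted p 0.32), and the fibrillar median was 0.22.

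Col11a1 encodes a chain of type XI collagen, which limits the width of fibrils. Control levels were 6.72, 6.02 and 5.53 and zinc levels 6.97, 7.48 and 6.44. The diets overlapped, since control replicate 1 lay above zinc replicate 10. The change of 0.87 ± 0.36 (SE, 95% interval 0.02 to 1.73) was the largest in size of the 36 genes, 1.83-fold, with a limma adjusted p of 0.78. A second probe set that was kept read 6.19, 4.91 and 5.31 against 5.97, 6.43 and 6.56, a change of 0.85, so both probe sets gave a like difference and both overlapped.

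Col5a2, a chain of type V collagen, which starts type I fibrils, had levels of 5.96, 5.25 and 5.43 on the control diet and 6.08, 5.67 and 5.999 on the zinc diet. Its change of 0.37 ± 0.20 (SE, 95% interval -0.11 to 0.85) had a limma adjusted p of 0.82, and its second probe set changed by 0.33. The change was 0.58 without control replicate 1 and 0.22 without control replicate 9. Here control replicate 1 was as high as the zinc mice. The other type V chain kept, Col5a1, changed by -0.06 ± 0.11 (SE), and Col27a1, which encodes a fibrillar chain of cartilage, by -0.04 ± 0.072 (SE).

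Other well known fibrillar genes lay under the filter in both diets. Col1a1, the partner chain of Col1a2, read 2.88, 2.83 and 2.92 against 2.84, 3.02 and 2.77. Its second probe set, also under the filter, lay below the controls in all zinc mice with a change of -0.25, opposite in sign to Col1a2. Col3a1, the type III chain, read 3.41, 3.82 and 3.17 against 3.43, 3.73 and 3.69, a change of 0.15 ± 0.17 (SE). Col24a1 changed by 0.28 ± 0.29 (SE), and Col2a1, Col5a3 and Col11a2 by less than 0.1 in size. At these levels none of them can be told from background.

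**Figure D2:**
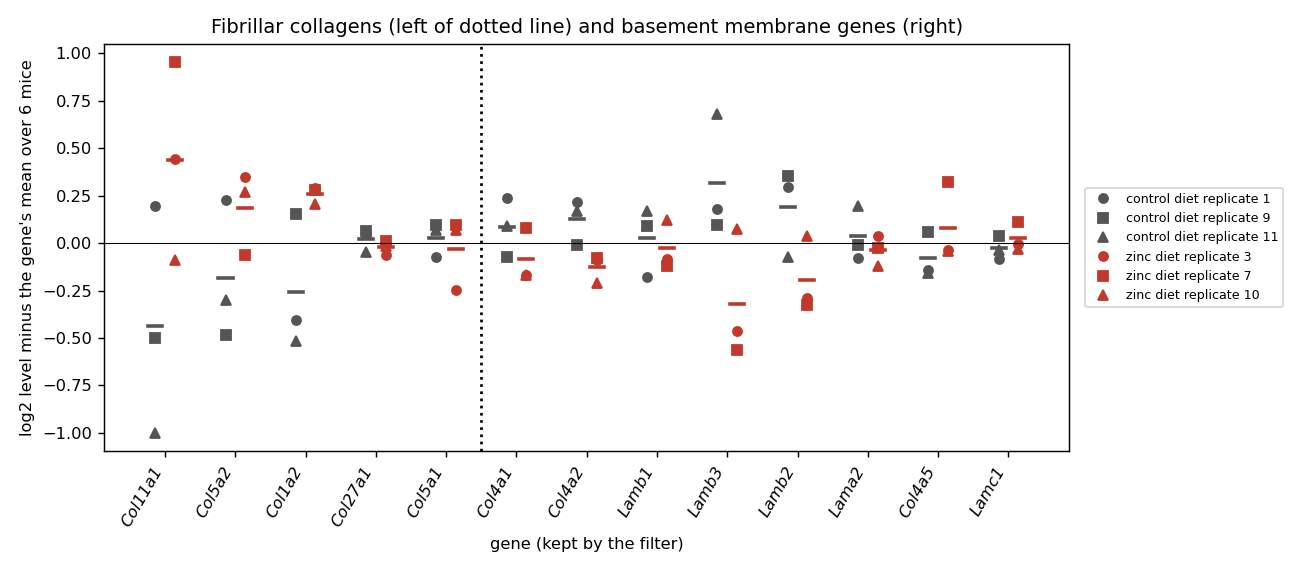
Log2 level minus the gene's mean over the 6 mice for the 5 fibrillar collagens kept (left of the dotted line) and the 8 basement membrane genes kept (right), with 1 symbol a mouse (control grey, zinc red) and a bar at each diet's mean. The 3 zinc values of Col1a2 lie above, and those of Col4a2 and Lamb3 below, the 3 control values.

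Basement membrane genes had a median log2 change of -0.12 over the 8 kept, with 2 higher and 6 lower, and of -0.040 over all 18. Without control replicate 11 the median of the 8 was -0.080. Col4a1 and Col4a2 are joined in the same trimer and share the start shown above. Col4a1 read 9.36, 9.05 and 9.21 on the control diet and 8.96, 9.20 and 8.95 on the zinc diet. The values overlapped, with zinc replicate 7 inside the control range, and the change was -0.17 ± 0.11 (SE, 95% interval -0.44 to 0.10) with a limma adjusted p of 0.86, and -0.095 without control replicate 1. Col4a2 read 8.69, 8.46 and 8.64 against 8.38, 8.39 and 8.26, with all zinc values below all control values. Its means of 8.59 ± 0.12 (SD, n = 3) and 8.34 ± 0.074 (SD, n = 3) differed by -0.25 ± 0.090 (SE, 95% interval -0.47 to -0.04), with a limma adjusted p of 0.74. A second probe set of Col4a1 changed by -0.03. The minor chain Col4a5 changed by 0.16 ± 0.13 (SE), and Col4a3, Col4a4 and Col4a6, known best from kidney, lay under the filter.

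The laminin chain with the largest difference was Lamb3, a beta chain of the laminin of epithelial basement membranes. Its levels were 4.91, 4.83 and 5.41 on the control diet and 4.27, 4.17 and 4.81 on the zinc diet. All zinc values lay below, although zinc replicate 10 nearly reached control replicate 9. The change was -0.64 ± 0.22 (SE, 95% interval -1.15 to -0.12) with a limma adjusted p of 0.72. Lamb2, the beta chain of many vascular and synaptic laminins, read 4.999, 5.06 and 4.63 against 4.41, 4.38 and 4.74. Its diets overlapped through control replicate 11 and zinc replicate 10, and its change was -0.38 ± 0.15 (SE, 95% interval -0.74 to -0.03) with a limma adjusted p of 0.77.

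The other laminin chains kept stood close to 0. Lamb1 changed by -0.05 ± 0.12 (SE, 95% interval -0.34 to 0.23), and its second kept probe set by 0.12. Lamc1, the partner of Lamb1, changed by 0.05 ± 0.078 (SE), and Lama2, an alpha chain of muscle and of brain vessels, by -0.07 ± 0.097 (SE). Lama4, the endothelial alpha chain, lay under the filter and changed by 0.09 ± 0.095 (SE). Col18a1, whose C-terminal fragment is endostatin, also lay under the filter on both of its probe sets. It read 4.01, 3.90 and 4.14 against 3.58, 3.51 and 3.77, all zinc values below, and its second probe set was below in all zinc mice as well, with a change of -0.21. In the limma fit without a filter its change was -0.40 ± 0.10 (SE), with an unadjusted p of 0.0052 and an adjusted p of 0.69. Its relative Col15a1 changed by -0.01 ± 0.11 (SE).

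To set fibrillar against basement membrane genes mouse by mouse, each gene was centred on its mean over the 6 mice and the mean of the 8 basement membrane genes kept was taken from the mean of the 5 fibrillar genes kept. This difference was -0.058, -0.20 and -0.49 in control replicates 1, 9 and 11, and 0.29, 0.33 and 0.13 in zinc replicates 3, 7 and 10. The diets did not overlap, and their means were -0.25 ± 0.22 (SD, n = 3) and 0.25 ± 0.11 (SD, n = 3), 0.50 apart on the log2 scale. The fibrillar mean alone read -0.0020, -0.14 and -0.36 against 0.15, 0.26 and 0.087, and the basement membrane mean alone 0.056, 0.068 and 0.13 against -0.14, -0.075 and -0.042. Without control replicate 9 the diets were 0.52 apart. No p is given for it, because the groups were chosen with results of these data known.

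Over all genes of both groups (11 against 18) the same difference read 0.024, -0.13 and -0.33 on the control diet and 0.12, 0.27 and 0.046 on the zinc diet, 0.29 apart. The gap between the diets then narrowed to that between control replicate 1 and zinc replicate 10. With type I and V chains against type IV collagens and laminins (3 against 8 genes kept) it read -0.14, -0.15 and -0.38 against 0.27, 0.18 and 0.22, 0.45 apart.

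**Figure D3:**
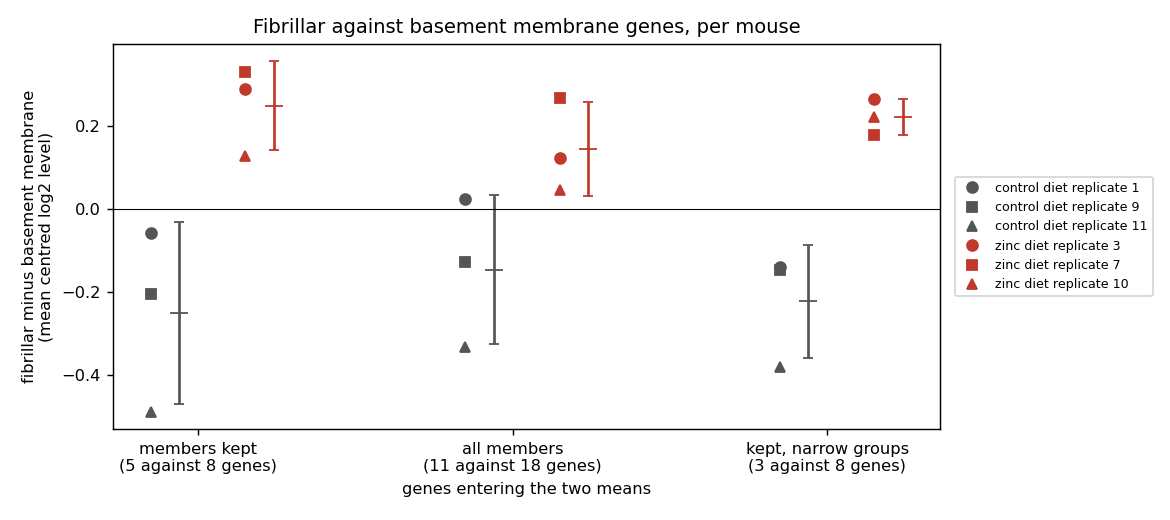
Mean centred log2 level of fibrillar genes minus that of basement membrane genes for each mouse (symbols; control grey, zinc red; bars are mean ± SD of 3 mice), over genes kept, all genes, and narrower groups. The zinc mice lie above the control mice in each set, by 0.50, 0.29 and 0.45 on average.

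Some meningeal markers moved with Col1a2 and others did not. A list of 14 meningeal and fibroblast markers had 7 genes kept, 4 higher and 3 lower on the zinc diet, with a median log2 change of 0.74. Its mean level was 7.22, 8.36 and 7.26 in control replicates 1, 9 and 11 and lay between 7.94 and 8.18 in the zinc mice. Control replicate 9 lay above the zinc mice, so the diets overlapped. Ogn, a small leucine-rich proteoglycan of meningeal fibroblasts, read 3.63, 5.36 and 3.22 against 5.38, 5.93 and 5.94. Like Col1a2, it was highest among the controls in replicate 9 and above all controls in each zinc mouse. Its change was 1.68 ± 0.53 (SE) with a limma adjusted p of 0.70, and ran from 1.25 to 2.32 with a mouse left out. Mgp, an inhibitor of calcification, and Ptgds, a prostaglandin D synthase, lay above in all zinc mice too. Their changes were 0.85 ± 0.28 (SE) and 0.75 ± 0.26 (SE). Dcn and Igf2 were at -0.40 and -0.21 and were highest in control replicate 9. Without that mouse they were at 0.079 and 0.35, and the list had 6 genes higher, 1 lower and a median of 1.06. Pdgfra, which oligodendrocyte precursors also express, lay below in all zinc mice at -0.15. Whether other markers of the list, such as Ptgds, also came from cells outside the meninges was not tested. The part of meningeal cells and fibroblasts in the Col1a2 result was not tested either. In bulk tissue, fewer cells of a type and less RNA per cell cannot be told apart.

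The vessel marker lists had medians close to 0, with single genes in both directions. For the 10 endothelial markers kept of 14 listed the median change was 0.058, with mean levels of 6.66 to 6.79 in control mice and 6.74 to 6.79 in zinc mice. For the 9 pericyte and smooth muscle markers kept of 12 the median was 0.080, with mean levels of 6.68 to 6.79 and 6.73 to 6.83. Both lists had a median above 0, and the basement membrane genes had a median below 0. Whether vessel cells had a part in the basement membrane values was not tested. Of the endothelial markers 6 were higher and 4 lower, and their median was 0.0047 without control replicate 11 and 0.13 without control replicate 9. The pericyte median was 0.026 without zinc replicate 7. Esam and Pdgfrb lay above in all zinc mice at 0.19 and 0.30 (Pdgfrb 0.15 without zinc replicate 10), and Cspg4 below at -0.13. Emcn, an endothelial sialomucin named for its size of change, was at -0.33 ± 0.11 (SE) with overlap and a limma adjusted p of 0.73.

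**Figure D4:**
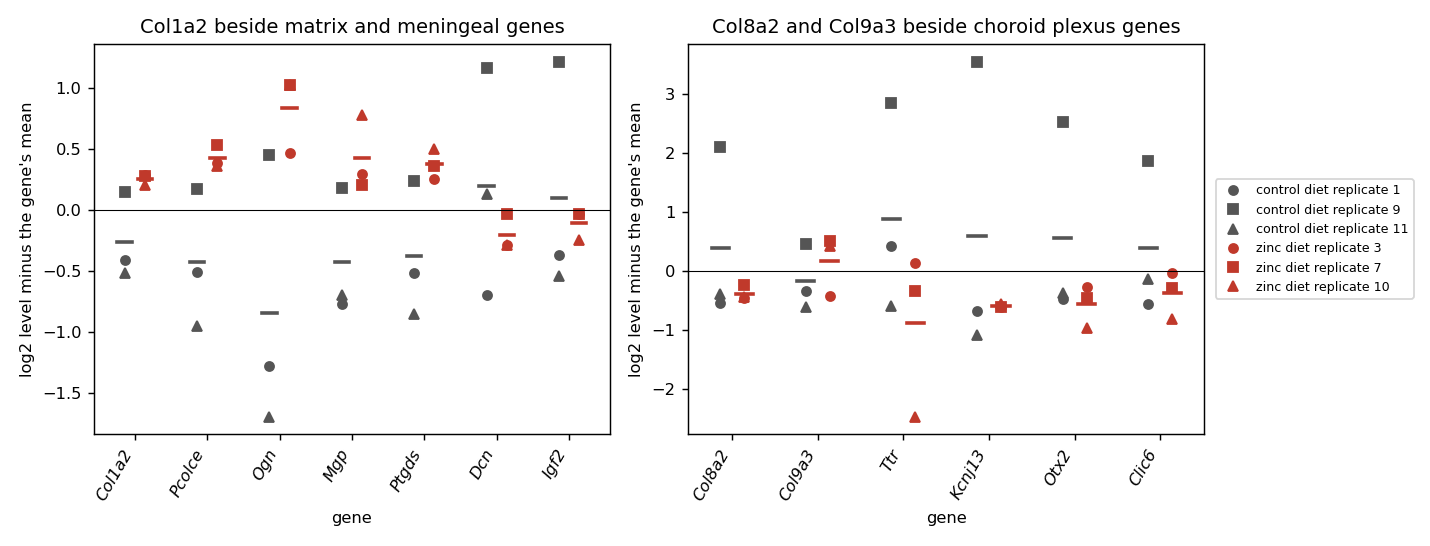
Log2 level minus the gene's mean for Col1a2 beside Pcolce and meningeal genes (left) and for Col8a2 and Col9a3 beside choroid plexus genes (right), 1 symbol a mouse, with bars at the diet means. Control replicate 9 is the control closest to the zinc mice for Col1a2, Ogn and Ptgds, and stands apart for Col8a2 and the choroid plexus genes.

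Among the collagens with interrupted triple helices, which sit on the surface of fibrils, the median log2 change was -0.032 over the 6 kept and -0.021 over all 9. Col19a1, made by some interneurons and linked to synapse formation, changed by 0.0075 ± 0.099 (SE, 95% interval -0.23 to 0.24), and its second kept probe set by -0.17 with all zinc values below. Its probe sets therefore disagree in sign. Col12a1, found in dense connective tissue, changed by -0.03 ± 0.17 (SE, 95% interval -0.44 to 0.38). Col22a1, a collagen of tissue junctions, read 4.05, 4.43 and 4.38 against 3.58, 4.11 and 4.13, a change of -0.35 ± 0.18 (SE) with a limma adjusted p of 0.82, and of -0.17 without zinc replicate 3.

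Among the beaded filament, anchoring fibril and other collagens, all 3 genes kept were higher, with a median of 0.17, and over all 9 the median was 0.058. Col6a2, a type VI chain of the beaded filaments around cells, read 4.47, 4.71 and 4.73 on the control diet and 4.84, 4.82 and 4.76 on the zinc diet. All zinc values lay above, by a narrow margin over control replicate 11, and the change was 0.17 ± 0.092 (SE, 95% interval -0.05 to 0.39) with a limma adjusted p of 0.82. Without control replicate 1 it was 0.090. Col6a2 had a second probe set, under the filter, that changed by 0.029 and overlapped between diets. Its partners Col6a1 and Col6a3, the latter under the filter, changed by 0.10 ± 0.11 (SE) and 0.16 ± 0.10 (SE), and Col7a1, the anchoring fibril collagen, by 0.19 ± 0.11 (SE).

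Col8a2 and Col9a3 are named because of their values in control replicate 9. Col8a2, a network collagen under the filter, read 2.29, 4.93 and 2.44 against 2.38, 2.59 and 2.39, so that its change of -0.77 ± 0.62 (SE) became 0.087 without that mouse, which stood apart from the other 5. Col9a3 read 4.97, 5.77 and 4.71 against 4.89, 5.82 and 5.73, and its second probe set 4.76, 5.65 and 4.83 against 4.60, 5.03 and 4.72. On the first, control replicate 9 lay above the other controls and within the range of the zinc mice, and on the second it was the highest of all. The changes of Col9a3 were 0.33 and -0.30, and 0.64 and -0.014 without that mouse. Of 12 choroid plexus and ependymal markers 4 were kept, with a mean level of 6.38, 9.28 and 6.09 in control replicates 1, 9 and 11 and of 5.62 to 6.56 in the zinc mice. Their median change was -0.98, and 0.090 without control replicate 9. Ttr, the choroid plexus transthyretin, read 14.68 in control replicate 9. Whether choroid plexus tissue set the Col8a2 and Col9a3 values of that mouse was not tested.

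All 4 transmembrane collagens had a negative change, with a median of -0.057, and -0.083 for the 2 kept. Col25a1, a neuronal collagen that is shed from the membrane and found in amyloid plaques, read 11.07, 10.96 and 10.94 against 10.80, 10.87 and 10.82. All zinc values lay below all control values, by a small step, and the change of -0.16 ± 0.073 (SE, 95% interval -0.34 to 0.01) had a limma adjusted p of 0.80. Col23a1 changed by -0.0022.

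The integrin receptors were close to level. Over the 10 subunits kept, the median log2 change was -0.031, with 3 higher and 7 lower, and over all 25 it was -0.077, with 7 higher and 18 lower. Without control replicate 11 the median of the 10 was 0.0052. On the probe set that stood for each gene, Itgav, Itgb8, Itga6 and Itgb1 had narrow 95% intervals. Those of Itga8 (-0.47 to 0.20, at a change of -0.13) and Itgb5 (-0.25 to 0.42) were wider. Itgav, the alpha subunit that pairs with several beta subunits, changed by -0.0048 ± 0.072 (SE, 95% interval -0.18 to 0.17). Itgb8, its partner on astrocytes in the activation of TGF-beta, changed by -0.08 ± 0.072 (SE, 95% interval -0.25 to 0.09), and its zinc values of 11.28, 11.35 and 11.38 lay below the controls of 11.47, 11.39 and 11.38 only by the third decimal. Itga6, a laminin receptor subunit, changed by 0.05 ± 0.082 (SE, 95% interval -0.14 to 0.25), and its second kept probe set by -0.072. Itgb1, the beta subunit of the collagen and laminin receptors, changed by -0.11 ± 0.097 (SE, 95% interval -0.34 to 0.13). The other kept probe sets of Itgb1 changed by -0.0093 and -0.16. The 4 kept probe sets of Itgb5, a vitronectin receptor subunit, disagreed, at 0.08, -0.12, -0.02 and -0.22.

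On the probe sets that stood for them, Itga4 and Itga9, a closely related pair of alpha subunits, differed in sign. Itga4, the subunit by which leukocytes bind VCAM-1 and fibronectin, read 6.04, 6.52 and 6.52 on the control diet and 5.77, 5.49 and 6.07 on the zinc diet. Zinc replicate 10 just passed control replicate 1, and the means of 6.36 ± 0.27 (SD, n = 3) and 5.78 ± 0.29 (SD, n = 3) differed by -0.58 ± 0.19 (SE, 95% interval -1.03 to -0.14) with a limma adjusted p of 0.70. A second kept probe set of Itga4 changed by -0.50 and overlapped. Itga9, which binds tenascin, read 4.19, 4.44 and 4.55 against 4.52, 4.66 and 5.01, a change of 0.34 ± 0.15 (SE, 95% interval -0.03 to 0.71) with a limma adjusted p of 0.80. It was 0.20 without zinc replicate 10. The other probe sets of Itga9, under the filter, changed by -0.10 and 0.046 and overlapped between diets.

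The integrins of leukocytes and microglia lay low. Of 6 such genes only Itgb2, the common beta subunit, was kept. It read 3.95, 4.25 and 4.62 against 4.23, 4.22 and 4.24, a change of -0.04 ± 0.16 (SE). Its partner Itgam, the CD11b of microglia, lay under the filter at 3.27, 3.25 and 2.79 against 2.79, 2.80 and 2.65, with overlap between control replicate 11 and the zinc mice. Of 14 microglia and macrophage markers 11 were kept, 5 higher and 6 lower, with a median change of -0.056 (0.012 without control replicate 11) and mean levels of 7.59 to 7.69 in control mice and 7.54 to 7.62 in zinc mice. Ptprc, the pan-leukocyte CD45, read 6.67, 6.82 and 6.87 against 6.23, 6.03 and 6.62, with all zinc values below. The change of Ptprc was -0.49 ± 0.15 (SE) with a limma adjusted p of 0.70, and that of Aif1, the other marker of the 11 with all zinc values below, was -0.08. The part of leukocytes or microglia in the Itga4 result was not tested, and none of 10 platelet, red cell and lymphocyte markers on the array was kept.

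Itgb1bp1 had the smallest p of the 36 genes. It is no integrin: it encodes ICAP-1, a small protein that binds the cytoplasmic tail of the beta 1 integrin subunit and holds it inactive. Its levels were 9.54, 9.73 and 9.55 on the control diet and 9.88, 9.96 and 9.92 on the zinc diet. Every zinc value lay above every control value, and the means of 9.61 ± 0.11 (SD, n = 3) and 9.92 ± 0.040 (SD, n = 3) differed by 0.31 ± 0.083 (SE, 95% interval 0.12 to 0.51). This is 1.24-fold, with an unadjusted p of 0.0074 and a limma adjusted p of 0.59. Itgb3bp, a centromere protein that also binds the beta 3 tail, changed by 0.09 ± 0.095 (SE).

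**Figure D5:**
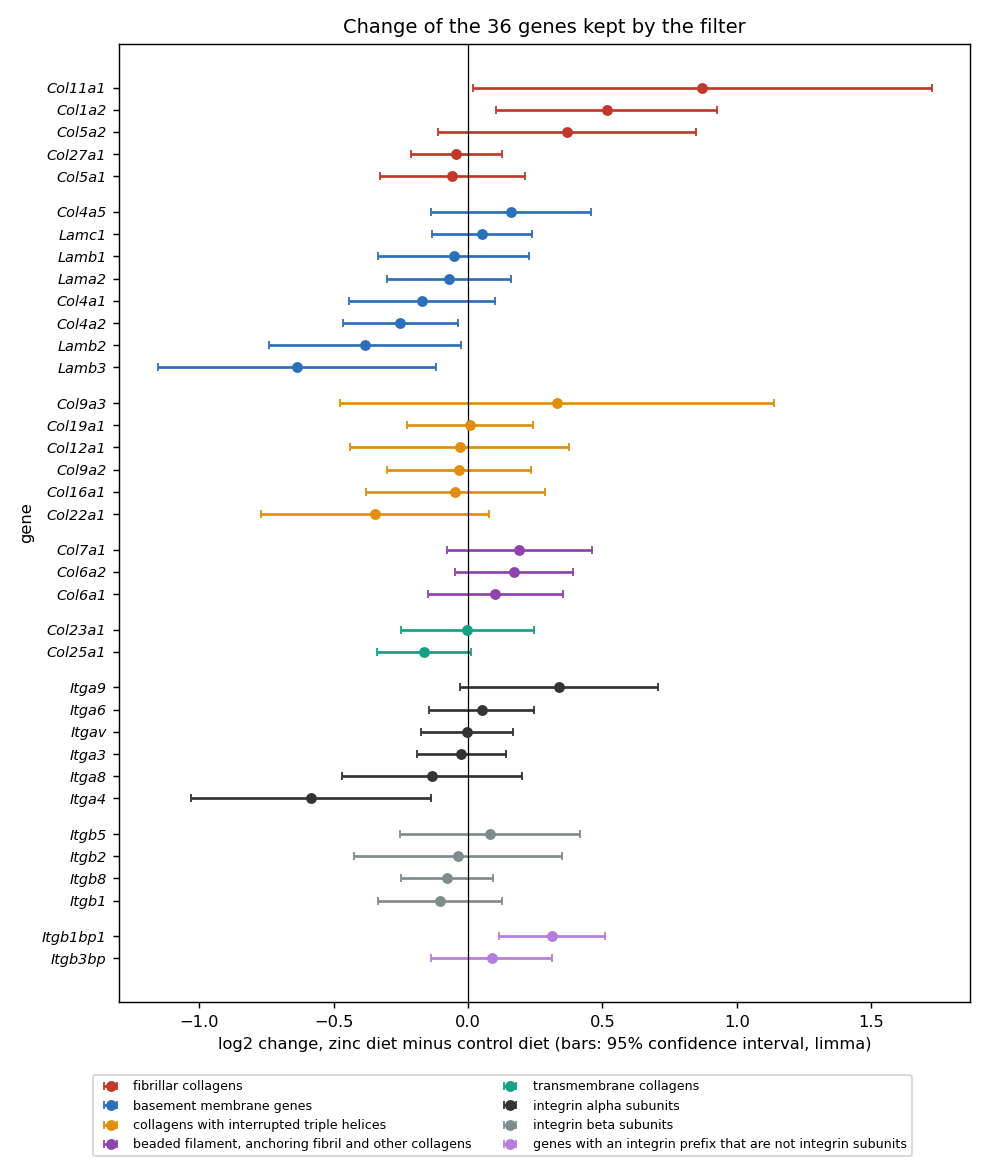
Log2 change (zinc diet minus control diet) with its 95% confidence interval from limma for the 36 genes kept, ordered by group. The intervals of 7 genes leave out 0 before adjustment, among them Col1a2 (0.10 to 0.93), Itga4 (-1.03 to -0.14) and Itgb1bp1 (0.12 to 0.51).

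Among the genes that make and process collagen, none passed the adjusted threshold, and of 16 kept of 24 listed 4 were higher and 12 lower, with a median log2 change of -0.079. Without zinc replicate 3 the counts were 7 and 9 and the median -0.030. In 3 of the 16 all zinc values lay above the controls, where 6.66% of all probe sets kept lay, and in 2 all lay below, where 5.33% lay. Adamts3, a protease that trims the N-terminal propeptide of procollagens, read 7.04, 6.99 and 7.21 against 7.54, 7.90 and 7.85, a change of 0.68 ± 0.12 (SE) with a limma adjusted p of 0.36. P4ha2, a subunit of the prolyl hydroxylase that stabilises the helix, read 6.28, 5.93 and 6.19 against 6.75, 6.64 and 6.50, a change of 0.50 ± 0.12 (SE) with a limma adjusted p of 0.53. These 2 genes, and Pcolce and Bmp1 described next, had smaller limma adjusted p-values than any of the collagen chains.

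Pcolce and Bmp1, which act together on the C-terminal propeptide, differed in sign. Pcolce, the enhancer, read 4.24, 4.93 and 3.80 against 5.14, 5.28 and 5.12, a change of 0.86 ± 0.26 (SE), and control replicate 9 was again its highest control. The change of Pcolce ran from 0.60 to 1.16 with a mouse left out. Bmp1, the protease itself, read 5.45, 5.57 and 5.60 against 5.03, 5.29 and 5.01, all below, with a change of -0.43 ± 0.10 (SE) and a limma adjusted p of 0.52. Ppib, a proline isomerase for collagen folding, lay below as well, with a change of -0.10 ± 0.067 (SE).

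The remaining lists were centred near 0, and none of their genes passed the adjusted threshold. Other basement membrane components (8 kept of 12) had 3 higher and 5 lower with a median of -0.025. Matrix proteases and their inhibitors (13 of 19) had 6 higher and 7 lower with a median of -0.0028, and of these Timp2, a metalloprotease inhibitor, lay below in all zinc mice at -0.15 ± 0.074 (SE). Integrin adaptors and signalling proteins (19 of 21) had 12 higher and 7 lower with a median of 0.042, and collagen receptors outside the integrins (4 of 7) had 2 higher and 2 lower with a median of 0.015.

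Across the series, array medians lay between 4.04 and 4.09 and correlations between arrays from 0.991 to 0.996. All 11 amygdala markers on the array were kept, with a median log2 change of 0.33, and 5 lay above in all zinc mice. All 8 kept markers of striatal type spiny neurons lay above in the zinc mice, with a median log2 change of 1.17. Of all probe sets kept, 6.66% lay above. The amygdala list was not independent of the others. Its largest change, 1.42, was that of Ppp1r1b, which is also on the striatal list. Its lowest, -0.080, was that of Slc17a7, which is also on the excitatory neuron list. The 11 myelin markers kept had a median of 0.38, the 10 astrocyte markers -0.029 and the 8 excitatory neuron markers -0.036. The part of the tissue taken at dissection in the changes of the collagen, laminin and integrin genes was not tested.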

How the data were processed

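Total RNA (500 ng a mouse, per the labels' protocols) was measured on 6 arrays. The log2 values per probe set are those the authors deposited in 1 table. The table states no scale, and log2 follows from its range. Per the submitters' processing notes, the tools were R 2.15.1 and GCRMA 2.28.0, and the sources used here do not give how they were run. GCRMA can stretch or shrink differences near the low end. Array background measures were not used here, and the number of arrays limits the precision.

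Of 45101 probe sets, 64 control probe sets were left out, and 22877 with a mean of at least 4 were kept. The main test was that of limma 3.58.1 under R 4.3.3 (lmFit, eBayes, two-sided, no covariate), with Benjamini-Hochberg adjustment over all probe sets kept and a threshold of 0.05. Values of genes under the filter come from the same fit over 45037 probe sets. Nothing says beyond the titles that the mice were raised apart, so the p-values measure the spread between these 6 mice. Simulated data of 22877 probe sets were made for the zinc diet against control diet comparison. There the fit called 80% of 100 probe sets given a shift of 1 on the log2 scale and 95% of 100 given a shift of 2, with 6 false calls. In the measured data no probe set passed. Ogn, at a change of 1.68, had a limma adjusted p of 0.70, and Rgs9, a striatal type marker at 1.80, one of 0.076. The simulated percentages therefore cannot be read as the share of such shifts called on the measured arrays.

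The probe set of the highest mean stood for a gene. Of the 80 genes, 48 had several probe sets and 11 a second one that was kept, and some probe sets can also match related transcripts. All 80 matched RefSeq (GRCm38.p6) by Entrez number. The genes named were 25 set by symbol, up to 6 kept genes in each direction with the smallest unadjusted p, and up to 3 non-overlapping genes of each list in each direction; any other name was picked with its values in view. The genes, groups and lists were chosen with earlier results of these data known. Fits were repeated without a filter, with a mean of at least 6, with quantile normalization, median centring, averaging all probe sets of a gene, values under 4 set to 4, array weights, trend and robust eBayes, and without each mouse.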

Additional observations from a re-analysis of the deposited data

How the results depend on the processing

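No collagen, laminin or integrin gene tested passed an adjusted p of 0.05 in limma under any of the 14 alternatives, with 15 of the 36 genes left to test at a minimum mean of 6. Over all probe sets the count was 2 with a minimum mean of 6, 2 with all probe sets of a gene averaged, 3 with trend and robust eBayes, and 0 under the others. Genes whose diets did not overlap numbered 4 of 15 (26.7%, beside 12.8% of probe sets) with a minimum mean of 6 and from 8 to 14 of 36 with a mouse left out, where 17.7% to 29% of probe sets did not overlap. The fibrillar median was 0.070 with no filter, 0.87 with a minimum mean of 6, where Col11a1 alone was left, and 0.22 to 0.49 with a mouse left out. The basement membrane median was -0.040, -0.21 (only Col4a1 and Col4a2 left) and -0.17 to -0.080 under the same settings, and -0.18 with all probe sets of a gene averaged. The integrin median was -0.077, -0.079 and -0.052 to 0.0052. The fibrillar minus basement membrane difference was 0.29, 1.08 and 0.38 to 0.60, above 0 in each. The averaged probe sets of Col1a2 lay under the filter and gave no value.

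Genes close to 0, and Col9a3 at 0.33, changed sign, as did Col8a2 at -0.77 and Col3a1 at 0.15, both under the filter. With a mouse left out Col8a2 reached 0.087 and Col3a1 -0.00024. With all probe sets of a gene averaged Col19a1 gave -0.053, Itga6 -0.011, Itgb5 -0.071, Lamb1 0.0078 and Col9a3 -0.059. Col19a1 gave -0.012 with quantile normalization, Itgav 0.0073 with median centring and Itgb5 -5.4e-05 with array weights. With a mouse left out the ranges were -0.055 to 0.21 for Itgb5, -0.042 to 0.095 for Col19a1, -0.15 to 0.13 for Col12a1, -0.027 to 0.025 for Itgav, -0.20 to 0.14 for Itgb2, -0.13 to 0.0088 for Lama2 and -0.16 to 0.018 for Lamb1. Col1a2 stayed at 0.39 to 0.72, Col11a1 at 0.59 to 1.19, Col4a2 at -0.32 to -0.21, Lamb3 at -0.83 to -0.46, Itga4 at -0.74 to -0.44 and Itgb1bp1 at 0.28 to 0.38. The values of marker and pathway lists, and of second probe sets, without a mouse were added after seeing the data. The cause of these shifts was not tested. No paired analysis was possible because the control replicates 1, 9 and 11 and the zinc replicates 3, 7 and 10 share no number.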
